A study of Mus musculus with 5 samples.

Results

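A set of 10 genes of amacrine and horizontal cells, the interneurons of the retina, were followed in pooled retinas of diabetic and control mice. The set held 8 transcription factors (Pax6, Tfap2a, Tfap2b, Prox1, Lhx1, Onecut1, Onecut2 and Ptf1a) and 2 calcium binding proteins (Calb1 and Calb2). The genes were chosen by name, and every probe set annotated with exactly 1 of these symbols was taken. This gave 26 of the 45101 probe sets on the array and 10 of 18193 genes, with the brightest probe set on average standing for each gene.

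Total retinal RNA of mice had been hybridised to 5 whole-genome expression arrays, 1 array for each pool of animals. For diabetic replicates 1 and 2, 2 mice gave 4 retinas to each pool after 5 weeks of diabetes brought on by streptozotocin, which kills pancreatic beta cells. For diabetic replicate 3, 3 mice gave 6 retinas after 3 to 4 weeks of induced diabetes, and the labels name no agent. For control replicates 1 and 2, 2 untreated, age-matched mice of normal blood glucose gave 4 retinas to each pool. The labels give no strain, sex or age, the controls received no injection that the labels mention, and a p-value compares pools, not animals.

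Horizontal cells take input from photoreceptors in the outer retina and feed back onto them, while amacrine cells shape the signals that bipolar cells pass to ganglion cells in the inner retina. Both arise in the embryo from progenitors in which Foxn4 and then Ptf1a act, and later factors separate the fates: Prox1, Onecut1, Onecut2 and Lhx1 on the horizontal side, and Tfap2a and Tfap2b in both. Several of these factors stay on in the adult cells, where Pax6 also marks amacrine and ganglion cells. Calbindin, from Calb1, and calretinin, from Calb2, are buffers of intracellular calcium and common stains for these cells.

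The signals are linear intensities in arbitrary units. Tests were run on log2(signal + 120.6), a scale on which changes of dim genes are understated, and only on the 10916 genes in the upper 60% by mean level. Of the 10 genes, 8 passed that filter, while Onecut1 and Ptf1a lay below it. Markers of rods (4 of 4 measured), bipolar cells (4 of 4), ganglion cells (5 of 5) and Muller glia (5 of 5) were all above the filter. None of the 8 measured lens markers was, and of 5 markers of cornea and surface epithelium 1, Perp, was. Lens and surface epithelium also use Pax6, and those lens markers summed to between 945 and 1297 units in diabetic pools and to 1531 and 802 units in control pools. The 5 surface epithelium markers summed to 3064, 1501 and 2987 units in diabetic replicates 1 to 3 and to 2016 and 2531 units in controls. Diabetic replicate 2 stood apart in 1 measure of RNA quality, with a 3' to 5' signal ratio of beta-actin of 4.32, against 2.01 and 2.43 in the other diabetic pools and 2.52 and 2.71 in controls. Its ratio for Gapdh departed far less, at 0.90, against 0.78 and 0.84 in the other diabetic pools and 0.82 and 0.81 in controls. Skeletal muscle markers summed to 60647 units in diabetic replicate 3 and 38779 in control replicate 2, against 1898 to 2721 units in the other 3 pools.

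**Figure D1:**
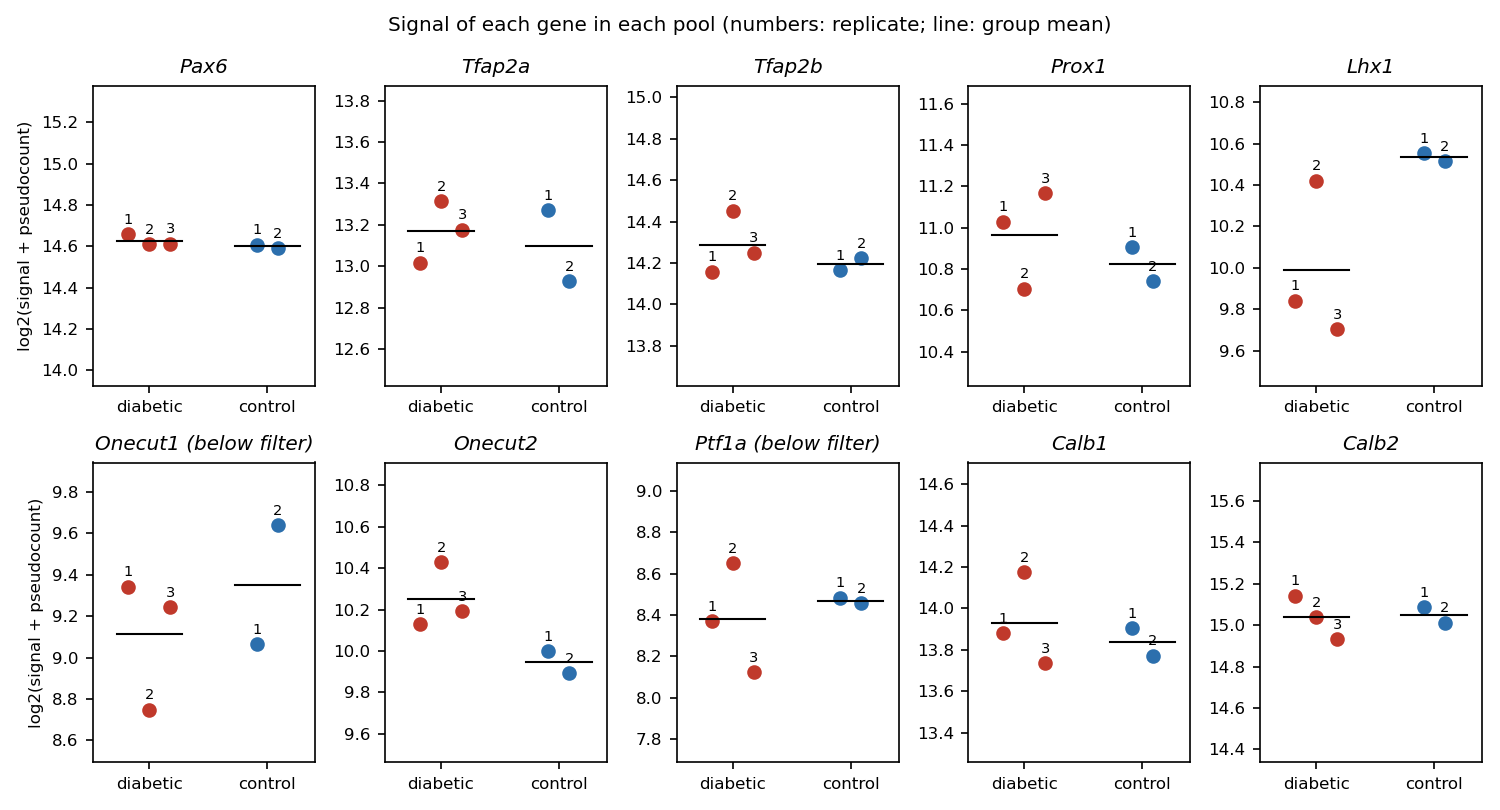
Each panel shows 1 gene, with log2(signal + 120.6) on the vertical axis and 1 point for each pool, numbered by replicate. The black lines are group means, and every panel spans the same height, so the near-constant Pax6 and the spread of Lhx1 and Onecut1 can be compared by eye, while absolute levels of different genes cannot.

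Diabetic pools were set against control pools to ask whether transcripts of these interneurons differ within weeks of diabetes. None of the 8 tested genes passed an adjusted p of 0.05 (limma, Benjamini-Hochberg over all tested genes, adjusted p = 0.999 for each), as was the case for 0% of the 10916 tested genes. At an unadjusted p under 0.05 there was 1 of the 8, Lhx1, against 3.39% of all tested genes. The log2 difference was above 0 in 6 of the 8, against 51.9% of all tested genes, and below 0 in Lhx1 and Calb2. Their median was 0.08, and that of all tested genes 0.00602. The median of the 8 was 0.00384 without diabetic replicate 2 and 0.02 without control replicate 2. Diabetic and control values did not overlap in 3 of the 8, Pax6 and Onecut2 higher and Lhx1 lower. Over all tested genes the groups did not overlap in 18.1%, higher in diabetic pools in 9.99% and lower in 8.15%.

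**Figure D2:**
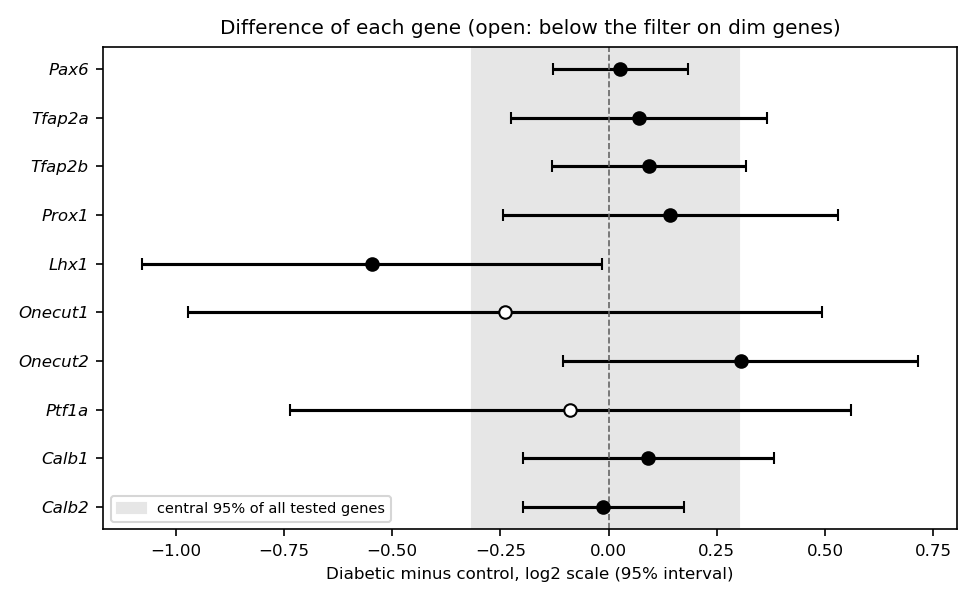
Points are diabetic minus control differences on the log2 scale with 95% intervals from limma, filled for the 8 tested genes and open for Onecut1 and Ptf1a, which lay below the filter. The grey band holds the central 95% of all tested genes, from -0.32 to 0.30, and Lhx1 at -0.55 lies outside it, with Onecut2 at 0.30 on its edge.

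Lhx1 encodes a LIM homeodomain factor that horizontal cells need to settle in their proper layer. Its probe set 1450428_at had signals of 796, 1250 and 713 in diabetic replicates 1 to 3, against 1384 and 1342 in control replicates 1 and 2. Every diabetic pool was below both controls, but diabetic replicate 2 lay close to them, so the gap rested mainly on diabetic replicates 1 and 3. On the log2 scale diabetic pools averaged 9.99 ± 0.38 (SD, n = 3) and control pools 10.53 ± 0.03 (SD, n = 2), a difference of -0.55 (SE 0.23, 95% interval -1.08 to -0.02, limma adjusted p = 0.999). Its absolute size was larger than that of 99.0% of tested genes. The pooled SD of Lhx1 within groups was also large, 0.31 against a median of 0.13 over all tested genes. In the fit over all probe sets the 95% interval held 0 (-1.09 to 0.00103). The unadjusted limma p lay on both sides of 0.05 across the settings. With single arrays left out, the difference lay between -0.76, without diabetic replicate 2, and -0.40, without diabetic replicate 3. Other settings gave -0.37 with the pseudocount at the median of all values and -0.27 as the mean over its probe sets. In whole retina, fewer cells of a type and less RNA per cell cannot be told apart.

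The other probe set of Lhx1, 1421951_at, did not show this pattern. Its signals were 724, 591 and 631 in diabetic and 679 and 607 in control pools, which overlap, and its log2 difference was 0.00790 (95% interval -0.47 to 0.49). Genes whose 5 array values ran most like those of 1450428_at, by root mean square distance of log2 values centred on each gene's mean, were Tmem196 (0.06), 9130019O22Rik (0.06), Med18 (0.06), Gatb (0.08) and Brpf3 (0.09). They were picked as the nearest of the 10915 other tested genes, so their small distances follow from the choice. The median distance over all of these was 0.37, and a gene with equal values in all arrays would lie at 0.36. Pigment epithelium markers (Rpe65, Rgr, Rdh5, Lrat and Ttr, all 5 above the filter) also had lower signals in the diabetic pools. Lower without overlap were 8.15% of all tested genes and all 5 of these markers. Their summed signals were 47591, 73625 and 47426 in diabetic replicates 1 to 3 and 91629 and 137210 in controls, and Ttr made up most of each sum. All 5 markers were higher in control replicate 2 than in control replicate 1, and Lhx1 was nearly level in controls. In diabetic replicate 2, Rpe65, Rgr and Rdh5 read 2645, 2943 and 2550 units, against lower control values of 4495, 5308 and 3931. Lrat and Ttr read 854 and 64634 units there, nearer to their lower control values of 1072 and 76823. Among diabetic pools, Rpe65, Rgr, Lrat and Ttr were highest in diabetic replicate 2, as Lhx1 was, and Rdh5 was highest in diabetic replicate 1. The part of pigment epithelium in the Lhx1 difference was not tested.

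Onecut2, a cut homeodomain factor that acts with Onecut1 in the making of horizontal cells, was read by 3 probe sets that gave 3 different pictures. Its brightest, 1440005_at, had signals of 1000, 1259 and 1048 in diabetic pools, against 903 and 829 in controls. All diabetic values were above both controls, and the difference was 0.30 on the log2 scale (SE 0.18, 95% interval -0.11 to 0.72, limma adjusted p = 0.999). Probe set 1444980_at ran the other way without overlap, with 758, 935 and 966 in diabetic and 1033 and 1043 in control pools, a log2 difference of -0.21 (95% interval -0.64 to 0.23). Probe set 1460044_at overlapped, with 530, 720 and 852 in diabetic and 720 and 588 in control pools and a log2 difference of 0.07. The mean over the 3 probe sets differed by 0.06. Diabetic replicate 2 held the highest value of 1440005_at, whose difference was 0.21 when that pool was left out.

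Onecut1, the other cut factor, fell short of the filter at the gene level and had no test there. The brighter of its 2 probe sets, 1450252_at, had signals of 529, 309 and 486 in diabetic and 414 and 676 in control pools, so the control values lay further apart than the group means. On the log2 scale diabetic pools averaged 9.11 ± 0.32 (SD, n = 3) and control pools 9.35 ± 0.41 (SD, n = 2), a difference of -0.24, which became 0.05 when control replicate 2 was left out and -0.53 when control replicate 1 was. Its dimmer probe set, 1421447_at, had signals of 162, 21.1 and 42.4 in diabetic and 28.8 and 63.2 in control pools. Both probe sets were lowest in diabetic replicate 2.

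Prox1 encodes a homeodomain factor that drives horizontal cell genesis and in the adult also marks AII amacrine cells and Muller glia. Its brightest probe set, 1421336_at, had signals of 1968, 1548 and 2176 in diabetic and 1799 and 1590 in control pools. Diabetic replicates 1 and 3 lay above both controls but diabetic replicate 2 below them, so the groups overlapped. The log2 difference was 0.14 (SE 0.17, 95% interval -0.24 to 0.53), 0.04 without diabetic replicate 3 and 0.27 without diabetic replicate 2. The other 2 probe sets differed by -0.09 and -0.12, and they too were lowest in diabetic replicate 2. Probe set 1437894_at read 2370, 1046 and 2073 in diabetic and 1924 and 1788 in control pools.

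Ptf1a, a basic helix-loop-helix factor switched on briefly in embryonic precursors of both cell types, was below the filter in these retinas. Its single probe set had signals of 210, 282 and 158 in diabetic and 237 and 231 in control pools. The controls lay inside the diabetic range, and the difference of -0.09 on the log2 scale became 0.04 without diabetic replicate 3 and -0.22 without diabetic replicate 2.

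Pax6, the paired box and homeodomain factor that keeps retinal progenitors multipotent, was the steadiest of the 10 genes on its brightest probe set, 1419271_at. Its signals were 25746, 24873 and 24929 in diabetic and 24850 and 24577 in control pools. The diabetic values all lay above the controls, the closest pair by only 24 units, and the log2 difference was 0.03 (SE 0.07, 95% interval -0.13 to 0.18, limma adjusted p = 0.999). It was -0.00082 after quantile normalization. The pooled SD within groups was 0.02 on the log2 scale, against a median of 0.13 over all tested genes.

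The 4 further probe sets of Pax6 were far less steady. Probe set 1452526_a_at read 6652, 3051 and 5243 in diabetic and 4433 and 4306 in control pools. Probe set 1425960_s_at read 752, 165 and 484 in diabetic and 462 and 274 in control pools. In both, diabetic replicate 1 was the highest pool and diabetic replicate 2 the lowest, so the diabetic pools bracketed the controls. The summed surface epithelium markers above had the same highest and lowest pools, as did Prox1 probe set 1437894_at, but single markers differed. Krt12 and Aldh3a1 were highest in diabetic replicate 1, Krt5 and Krt14 in diabetic replicate 3 and Perp in control replicate 2. Krt12 was lowest in control replicate 2 and the other markers in diabetic replicate 2. The part of surface epithelium in these Pax6 signals was not tested. Diabetic replicate 2 was also lowest in 1456342_at, at 880 units against 1154 to 1285 in the other 4 pools, but highest in 1437816_at. The log2 differences of the 4 lay between -0.10 and 0.15, with 95% intervals that all held 0.

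Tfap2a and Tfap2b encode AP-2 factors found in amacrine and horizontal cells from shortly after they leave the cell cycle. Tfap2a had signals of 8169, 10070 and 9137 in diabetic and 9758 and 7670 in control pools on probe set 1421996_at. One control lay below the diabetic pools and the other among them, and the log2 difference was 0.07 (SE 0.13, 95% interval -0.22 to 0.37). Leaving out diabetic replicate 2 gave -0.00208, and leaving out control replicate 2 gave -0.10. Its other 2 probe sets also overlapped, with log2 differences of 0.06 and 0.07.

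Tfap2b had signals of 18154, 22312 and 19358 in diabetic and 18261 and 18986 in control pools on probe set 1435670_at. The controls lay between the lowest and the other 2 diabetic pools, and the log2 difference was 0.09 (SE 0.10, 95% interval -0.13 to 0.32). Without diabetic replicate 2 it was 0.00976 and without diabetic replicate 1 it was 0.16. Its second probe set, 1423340_at, read 5711, 4167 and 6117 in diabetic and 4694 and 5757 in control pools. Diabetic replicate 2 was thus the highest pool of one Tfap2b probe set and the lowest of the other.

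Calb1 had signals of 14948, 18370 and 13529 in diabetic and 15208 and 13869 in control pools on probe set 1417504_at. The groups overlapped, with diabetic replicate 2 highest and a log2 difference of 0.09 (SE 0.13, 95% interval -0.20 to 0.38). Without diabetic replicate 2 the difference was -0.03. Of its 3 further probe sets, 1456934_at and 1448738_at overlapped, with log2 differences of -0.17 and 0.16. Probe set 1458836_at did not overlap, at 378, 320 and 359 in diabetic and 184 and 36.2 in control pools, but it lay below the filter on dim probe sets and was not tested.

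Calb2 had signals of 36024, 33534 and 31123 in diabetic and 34696 and 32900 in control pools on its single probe set. The controls lay inside the diabetic range, and the log2 difference of -0.01 had a 95% interval of -0.20 to 0.17. It was 0.04 without diabetic replicate 3 and 0.03 without control replicate 1. For Calb2, and for Calb1 on probe set 1417504_at, the lowest values were those of diabetic replicate 3 and control replicate 2, the pools with high muscle signal. The further Calb1 probe sets had other orders. Fitted with a term for the muscle signal, the differences were 0.06 for Calb1 and -0.03 for Calb2. The part of muscle RNA in these levels was not tested further.

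**Figure D3:**
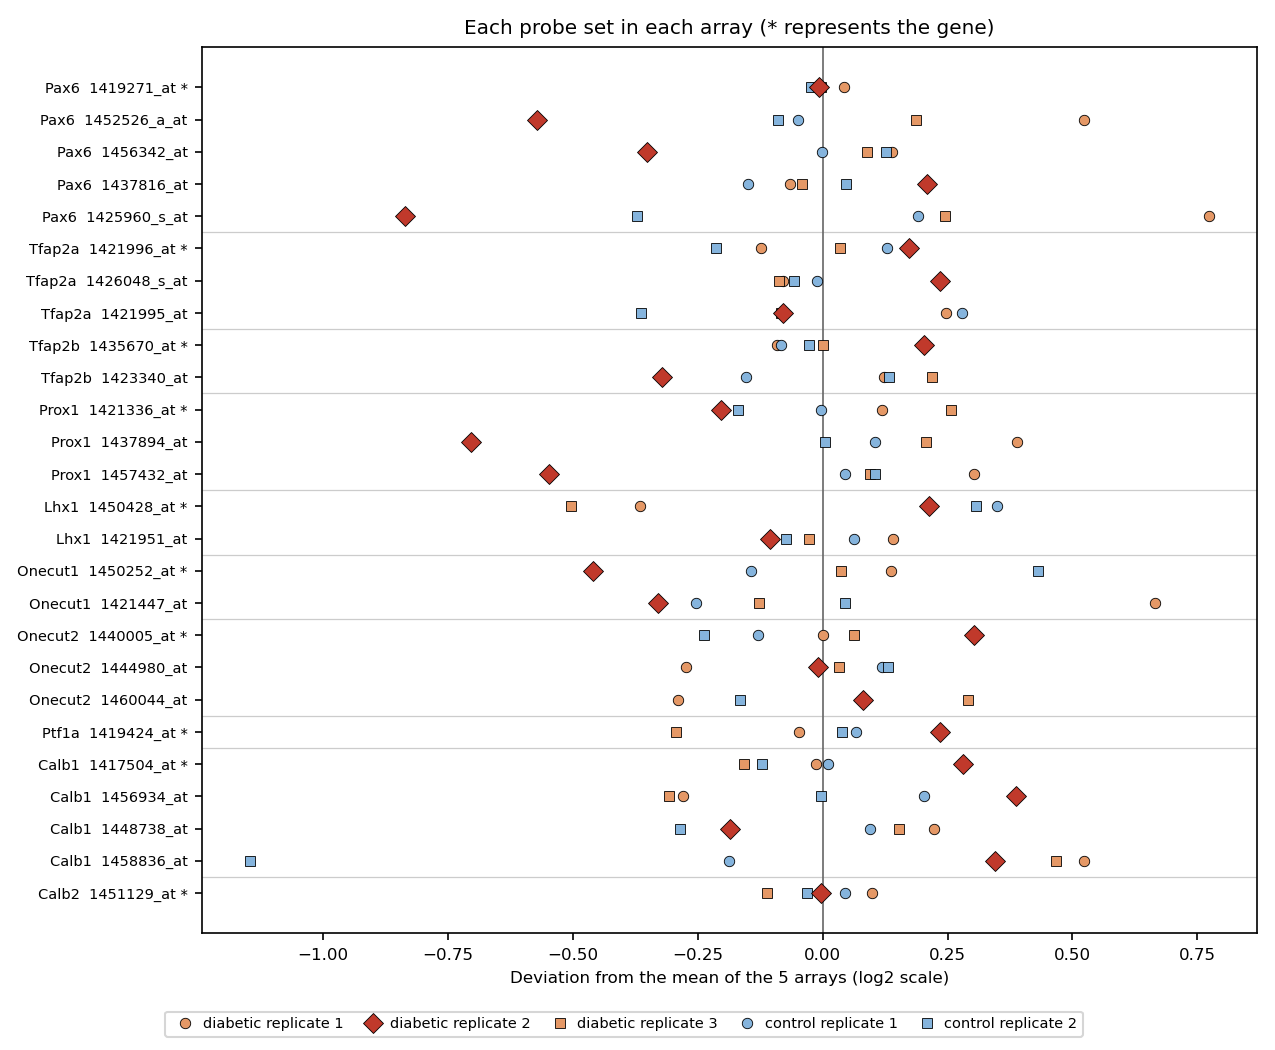
Rows are the 26 probe sets of the 10 genes, ordered by mean within each gene, and the horizontal axis is the deviation of each array from the mean of the 5 arrays on the log2 scale. Diabetic replicate 2 (red diamonds) lies at an end of the row in most genes, on the high side for Calb1, Tfap2b and Onecut2 on their brightest probe sets and on the low side for Prox1, Onecut1 and 3 of the 5 Pax6 probe sets.

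Across the 10 genes the pool that most often stood at an end was diabetic replicate 2. It held the highest value of 5 genes (Tfap2a, Tfap2b, Onecut2, Ptf1a and Calb1) and the lowest of 2 (Prox1 and Onecut1). Among the 8 tested genes it was highest in 4 and lowest in 1, while over all tested genes it was highest in 32.8% and lowest in 19.5%.

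The probe sets within a gene parted in the same pool. There were 14 further probe sets above the filter for genes represented by another probe set. In 11 of the 14 the deviation of diabetic replicate 2 from the mean of the other 4 arrays was lower than that of the gene's brightest probe set, by a median of -0.41 on the log2 scale. Over all 10019 such probe sets of 5865 genes the share was 65.3% and the median -0.14. In the other 4 pools the share over all such probe sets ran from 39.7% to 47.6%. Diabetic replicate 2 is the pool with the beta-actin ratio of 4.32 and a Gapdh ratio of 0.90, and the part of RNA quality in these probe set differences was not tested.

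At the level of single probe sets, 23 of the 26 were among the 27022 above the filter on dim probe sets. None passed (limma adjusted p = 0.99994 for each), against 0% of all tested probe sets. At an unadjusted p under 0.05 there were 0 of the 23, against 2.88% of all. Lhx1 probe set 1450428_at, under 0.05 in the gene fit, had an unadjusted limma p of 0.0503 in this fit of probe sets. Groups did not overlap in 4 of the 23, against 17.2% of all tested probe sets. Those 4 were the brightest probe sets of Pax6, Onecut2 and Lhx1 and the Onecut2 probe set 1444980_at. In no gene of the 10 did more than 1 probe set separate the groups in the same direction.

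**Figure D4:**
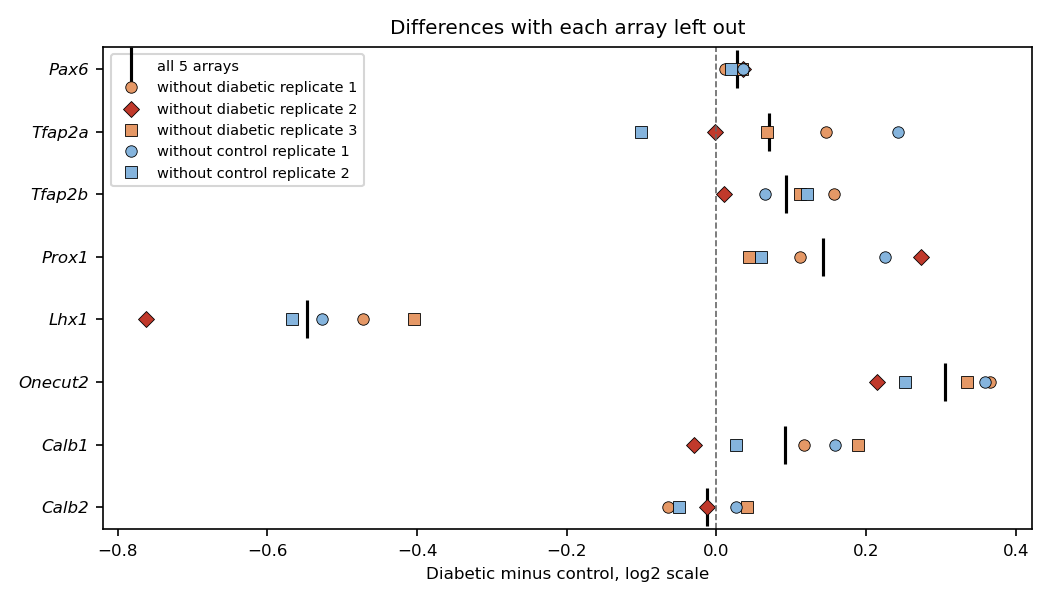
The horizontal axis is the diabetic minus control difference on the log2 scale for the 8 tested genes. Black bars use all 5 arrays and symbols leave out 1 array each: Lhx1 stays between -0.76 and -0.40 and Onecut2 between 0.21 and 0.37, while Tfap2a, Calb1 and Calb2 have values on both sides of 0.

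Related genes were counted in 5 lists, chosen with earlier results of these data known. The lists held other genes of amacrine and horizontal cells, and relatives of the followed genes, some of which belong to other retinal cells. None of the listed genes passed the test. Of 48 genes counted over the lists, 1 had an unadjusted limma p under 0.05, against 3.39% of all tested genes. Of 17 measured amacrine specification factors 11 were tested, 4 higher and 7 lower, with a median log2 difference of -0.06. Neurod4, a basic helix-loop-helix factor of amacrine and bipolar cells, differed by 0.08 (95% interval -0.11 to 0.27), and Eomes, a T-box factor of a ganglion and amacrine subset, by -0.14 (-0.47 to 0.20). Of 6 measured horizontal cell genes 4 were tested. All 4 (Septin4, Megf10, Megf11 and Slc32a1) had positive differences, against 51.9% of all tested genes, with a median of 0.23. The largest was that of Slc32a1, at 0.28. The 2 below the filter, Sall3 and Gja10, differed by -0.73 and -0.21, and the median of all 6 was 0.15. Among markers of other retinal neurons, 4 of 5 of ganglion cells were positive (median 0.15). Higher without overlap between the groups were 2 of the 5, against 9.99% of all tested genes. Rod markers were positive in 4 of 4 (median 0.06), while bipolar cell markers were split, 2 higher and 2 lower (median 0.05). Megf10, a surface protein that spaces horizontal and starburst amacrine cells, had signals of 3978, 4939 and 4308 in diabetic and 3407 and 3932 in control pools, which do not overlap, and a log2 difference of 0.25 (95% interval -0.03 to 0.54). Septin4, a filament protein of horizontal cells, differed by 0.20 (-0.05 to 0.46). The median of the 4 tested horizontal cell genes was 0.12 without diabetic replicate 2 and 0.09 with means over probe sets.

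Of 13 measured amacrine transmitter genes 11 were tested, 7 higher and 4 lower, with a median of 0.07 that was -0.12 without control replicate 2. Gad2, which makes the inhibitory transmitter GABA, differed by 0.18 (95% interval -0.09 to 0.46) and Elavl4, a neuronal RNA binding protein, by 0.18 (-0.08 to 0.45). Among 18 measured relatives of the transcription factors 5 were above the filter, 1 higher and 4 lower, with a median of -0.01. Lhx4, a LIM homeodomain factor of bipolar cells and photoreceptors, had signals of 1648, 2009 and 1991 in diabetic and 2350 and 2065 in control pools. Its groups did not overlap, and its log2 difference of -0.22 had a 95% interval of -0.55 to 0.11. Lhx2, a LIM factor of retinal progenitors and Muller glia, differed by 0.15 (-0.10 to 0.40).

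Of 18 measured relatives of calbindin and calretinin, proteins with the calcium binding EF-hand, 17 were tested, 10 higher and 7 lower, with a median of 0.00288. Necab1, a neuronal EF-hand protein, had signals of 6386, 4119 and 5526 in diabetic and 6601 and 8103 in control pools. All diabetic pools were below both controls, and its log2 difference of -0.47 (95% interval -0.87 to -0.06) was the only one of the list with an unadjusted p under 0.05. Cabp1, a calmodulin-like channel regulator, differed by 0.20 (-0.05 to 0.45) without overlap. Pvalb, named here after its values were seen, encodes parvalbumin, a calcium buffer of some retinal neurons and of fast muscle. It was high in the pools with high muscle signal, at 6213 units in diabetic replicate 3 and 7038 in control replicate 2. The other 3 pools read 3238 to 3492, so these 2 pools were highest here but lowest for Calb2 and for Calb1 on its brightest probe set. Of these lists, specification factors had a median of 0.06 without diabetic replicate 1, relatives of the transcription factors 0.09 without diabetic replicate 3 and -0.21 without diabetic replicate 2, and EF-hand genes -0.05 without diabetic replicate 2.

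**Figure D5:**
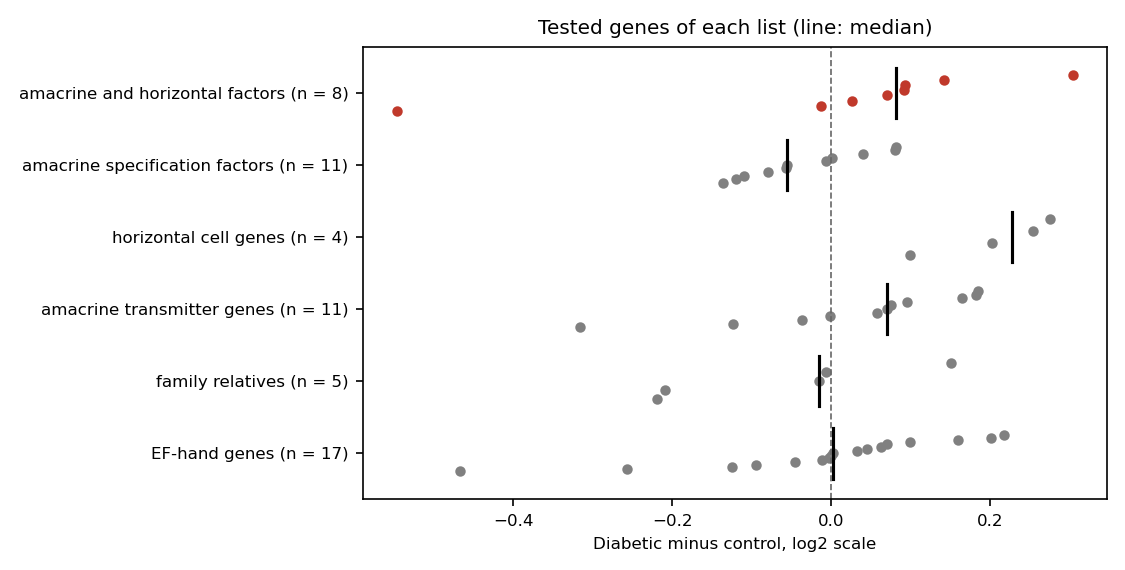
Each point is a tested gene, placed by its diabetic minus control difference on the log2 scale, with the list median as a black line. The 8 tested amacrine and horizontal factors (red) have a median of 0.08, with Lhx1 at -0.55 and Onecut2 at 0.30 as their ends, and the 4 horizontal cell genes a median of 0.23.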

How the data were processed

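Retinal RNA of 3 diabetic and 2 control pools was measured on 5 arrays, grouped by sample titles. Each deposited column holds linear signal intensities of the probe sets of 1 array, and the software that made them is not given in the sources used here. All columns had the same mean without the lowest and highest 2% of values, as global scaling gives, so the deposited scaling was kept. Of 45101 probe sets, 64 were controls, 34945 had 1 gene symbol and 932 several. Symbols of 34741 probe sets were taken by Entrez ID from a gene table of GRCm38.p6, whether or not the symbol changed. Signals were taken as log2(signal + 120.6), the pseudocount being the 20th percentile. Groups were compared in limma 3.58.1 (R 4.3.3; lmFit, eBayes with a trend, 3 residual degrees of freedom) with Benjamini-Hochberg adjustment at 0.05, and the steps were tested on simulated data. Plots used matplotlib 3.10.9. Members below the filter have values from a fit of all genes and no test.

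The 10 genes, the lists and the tests were chosen with earlier results of these data known. Named genes were the 10 members, the 2 tested genes of smallest p in each related list and the 5 tested genes nearest to Lhx1. Marker genes of other cell types, the other measured horizontal cell genes and Pvalb (chosen after its values were seen) are named besides. Alternatives covered the scaling, pseudocount, filter, choice of probe set, variance model, blocks and left-out arrays. The number of arrays limits the precision.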

Additional observations from a re-analysis of the deposited data

How the results depend on the processing

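Members past the threshold numbered 0 under every alternative run. Over all genes the count was 0, but 2 with a replicate block and 2 without both arrays of high muscle signal, and 0 to 1 with single arrays left out (1 without diabetic replicate 2 and 1 without diabetic replicate 3). No alternative moved the median of all tested genes by over 0.1. The median of the tested members lay between 0.00384 and 0.11 with single arrays left out. For the lists these ranges were -0.10 to 0.06 for amacrine specification factors, 0.12 to 0.28 for horizontal cell genes, -0.12 to 0.16 for amacrine transmitter genes, -0.21 to 0.086 for family relatives and -0.05 to 0.06 for EF-hand genes. The horizontal cell median was 0.085 with means over probe sets, and the transmitter median -0.14 without both muscle-rich arrays.

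Signs turned for Pax6 with quantile normalization (-0.00082) and on probe set 1456342_at (-0.10). They turned for Prox1 with the mean over probe sets (-0.024), without both muscle-rich arrays (-0.040) and on probe sets 1437894_at (-0.091) and 1457432_at (-0.12). The same held for Tfap2a without both muscle-rich arrays (-0.10), Lhx1 on 1421951_at (0.00790), Onecut2 on 1444980_at (-0.21) and Calb1 on 1456934_at (-0.17). Calb2 turned with arrays centred on medians (0.031), with the replicate block (0.041) and without both muscle-rich arrays (0.00252). With single arrays left out, Tfap2a ran from -0.10 to 0.24, Calb1 from -0.030 to 0.19 and Calb2 from -0.064 to 0.041. The cause was not tested.

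The groups share replicate numbers 1 and 2 only. Deviations from group means correlated at 0.13 for number 1 and -0.14 for number 2, but with 2 controls the control deviations mirror each other, so this check could not show a pairing or its absence. The labels give no shared source for equal numbers. In the block fit diabetic replicate 3 does not bear on the differences, the median of the members was 0.06 and no member passed.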
